A study of Mus musculus with 24 samples.

Results

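The comparison described here is between the non-transgenic control groups of a microRNA study of mouse soleus, named NTGa and NTGb. Its members were chosen by label alone, as every sample titled non-transgenic, and they were 12 of the 24 deposited samples, or 6 of the 12 animals, because each animal's RNA was run on 2 assay cards. NTGa were the wild-type littermates of MCK-PPARa mice, which overexpress PPARα in muscle. NTGb were the wild-type littermates of MCK-PPARb mice, which overexpress PPARβ in muscle. All were males aged 12 weeks, with 3 animals in each group. Neither control group carried a transgene, and the sources used here give no strain, no litter and no run date. The line that an animal came from and the run in which it was measured therefore cannot be told apart. The transgenic groups, with 3 animals each, are used below only to show how the same 2 lines compared when each carried its transgene. The MCK part of their names stands for the muscle creatine kinase promoter, which is active in muscle fibres and not in the other cells of the muscle.

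MicroRNAs are short RNAs that guide the silencing of messenger RNAs, and their seed, bases 2 to 8, does most of the target recognition. The soleus is a postural muscle rich in slow fibres, and skeletal muscle is known for high levels of miR-1, miR-133 and miR-206. Many microRNAs are made from clusters or from introns of other genes, so that neighbours are often transcribed together, and the passenger strand (marked with an asterisk) comes from the same hairpin as the guide strand.

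The mature sequences of the microRNAs that the comparison turned on are given first, from RefSeq (GRCm38.p6), 5′ to 3′, with the seed in capitals. The first set holds those called different between NTGa and NTGb.
miR-135a: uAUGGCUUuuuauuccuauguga
miR-425: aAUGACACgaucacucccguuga
miR-331-5p: cUAGGUAUggucccagggaucc
miR-509-3p: uGAUUGACauuucuguaaugg
miR-339-3p: uGAGCGCCucggcgacagagccg
The miR-339-3p sequence is the mouse one, whereas the assay that was called carries the rat name. miR-135a has a pair of copies. The first lies at chr9:106154140-106154162 on the plus strand, within both Glyctk and the long non-coding RNA gene D030055H07Rik. The other lies at chr10:92072141-92072163 on the minus strand. Positions within genes were read from coordinates alone, without comparing strands. miR-425 lies at chr9:108568789-108568811 on the plus strand within Dalrd3, and miR-331-5p at chr10:93963817-93963838 on the minus strand within Vezt. miR-509-3p lies at chrX:68010115-68010135 on the minus strand, in no other annotated gene. miR-339-3p lies at chr5:139369673-139369695 on the minus strand within 3110082I17Rik. No 2 of these 5 share a seed.

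The second set holds 4 of the 8 microRNAs that had an unadjusted p below 0.05 and the same sign in the comparison of the lines with and without the transgenes. These 4 did not pass adjustment in either comparison. They are shown with miR-221, which shares its seed with miR-222.
miR-222: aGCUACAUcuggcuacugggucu
miR-221: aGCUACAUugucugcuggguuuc
miR-193b: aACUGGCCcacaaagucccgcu
miR-31: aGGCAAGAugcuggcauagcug
miR-138: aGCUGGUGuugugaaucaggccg
The third set holds muscle microRNAs, of which miR-499 lies within the myosin gene Myh7b and miR-208b within Myh7, the gene of the slow myosin heavy chain.
miR-206: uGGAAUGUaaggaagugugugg
miR-499: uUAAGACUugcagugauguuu
miR-208b: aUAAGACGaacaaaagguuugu

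MicroRNAs were measured by TaqMan real-time PCR. The deposited value is a cycle threshold (Ct), the cycle at which the signal crosses a threshold, so that a lower Ct means more template. A microRNA counted as detected at a Ct below 35. Levels are given as relative abundance on the log2 scale, which is a reference Ct minus the Ct of the microRNA. The reference is, for each animal and card, the mean over the assays that every one of the 12 animals detected. Differences are NTGa minus NTGb, and 1 unit is a 2-fold difference if template doubles in each cycle.

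The number of microRNAs detected overlapped between NTGa and NTGb. Of the 584 assays, 279, 272 and 267 were detected in the NTGa animals, and 261, 296 and 248 in the NTGb animals. The NTGa values lay inside the NTGb range, with means of 273 ± 6.03 (SD, n = 3) and 268 ± 24.8 (SD, n = 3; exact permutation test, two-sided, p = 0.8). The small RNAs that serve as endogenous controls had a mean Ct that differed by -0.0934 cycles, NTGa minus NTGb (exact permutation test, p = 0.8, n = 3). Their commonly detected microRNAs differed in mean Ct by -0.346 cycles on card A (exact permutation test, p = 0.4) and by -0.347 cycles on card B (exact p = 0.2). U6 snRNA, a spliceosomal RNA used as a PCR reference, went the other way, with a Ct that was 0.206 cycles higher in NTGa on card A (exact permutation p = 0.2) and 0.228 cycles higher on card B (exact p = 0.1). With 3 animals against 3, the smallest p this test allows is 0.1, which the U6 value on card B reached because its groups did not overlap.

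NTGb replicate 2 stood apart from the other animals of its group. It had the most detected microRNAs of the 6 controls, and after scaling its abundant microRNAs were low and its rare ones high. Its reference Ct on card A was 27.6, against 28.4 in each of the other NTGb animals. At a given Ct, a lower reference gives a lower scaled level, for abundant and rare microRNAs alike. Why this animal stood apart was not tested. Among the 38 tested assays with a mean control Ct below 25, it was the lowest NTGb animal for 33, with a median of -0.62 (log2) against the mean of the other NTGb animals. Among the 84 with a mean Ct of 32 or more, it was the highest NTGb animal for 37 and the lowest for 17, with a median of 0.36.

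The distance between animals was summarised as the median absolute log2 difference over the 268 tested assays. Within NTGa it was 0.354 to 0.401 over the 3 pairs of animals. Within NTGb it was 0.310 for replicates 1 and 3, and 0.511 and 0.606 for the pairs that hold replicate 2. Between the control groups it ran from 0.383 to 0.633 over 9 pairs, with a median of 0.528. That range overlaps the one within NTGb. The transgenic groups gave 0.321 to 0.405 within MCK-PPARa and 0.304 to 0.424 within MCK-PPARb, and 0.362 to 0.560 between them.

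**Figure D1:**
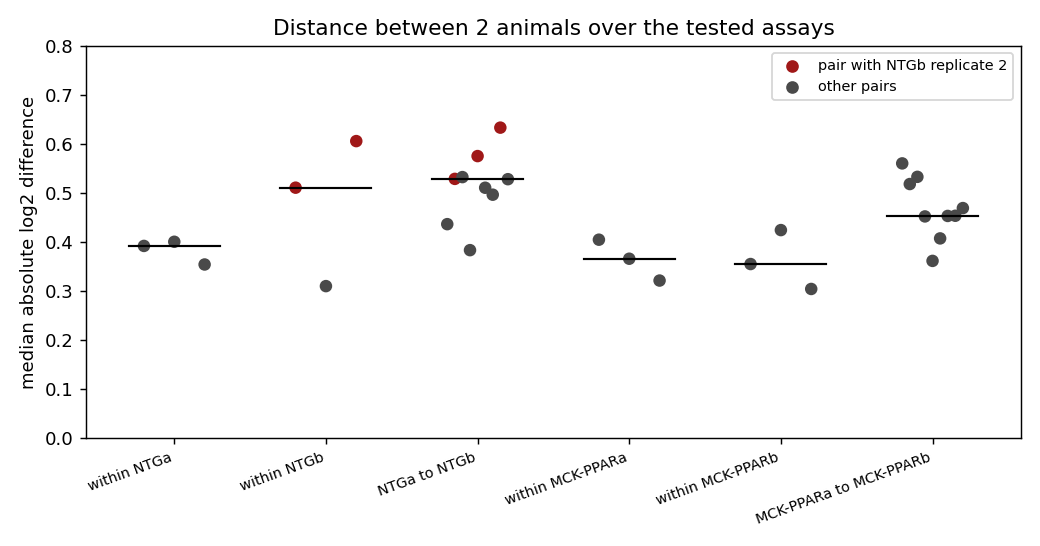
Median absolute log2 difference between 2 animals over the 268 tested assays (y axis), by kind of pair (x axis), with 1 point per pair and a bar at the median of each kind. Pairs with NTGb replicate 2 (red) reach 0.606 within NTGb and 0.633 between the control groups, and the NTGb pair without it is at 0.310.

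Few microRNAs were called different between the control groups, which with 3 animals a side does not show that the groups were alike. limma, fitted over all 12 animals with Benjamini-Hochberg adjustment over 268 assays, called 5 of them (1.87%), of which 3 were higher in NTGa (1.12%) and 2 lower (0.746%). Unadjusted p was below 0.05 for 42 assays (15.7%), with 17 higher in NTGa (6.34%) and 25 lower (9.33%). For 52 assays (19.4%) every animal of one group lay above every animal of the other, with 26 in each direction (9.7% each). The sign was close to even, with 129 of 268 assays (48.1%) higher in NTGa and a median difference of -0.03. All 5 calls were on card A, where each microRNA was read in 1 well, so none had a technical repeat.

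miR-135a, which lies at 2 loci of the genome and shares its family with miR-135b, was higher in NTGa. Its Ct was 29.7, 29.3 and 29.9 in the NTGa animals and 34.6 and 31.5 in NTGb replicates 1 and 2, and no Ct was called in NTGb replicate 3. All NTGa animals were above all NTGb animals, and the NTGb values were widely spread. The difference was 3.73 (SE 0.67, 95% interval 2.25 to 5.21), or 13.3-fold, with the undetected NTGb animal set to the detection floor of the card (limma, adjusted p = 0.0339). The star strand from the same hairpins, miR-135a*, differed by 0.63 (SE 0.37; limma, adjusted p = 0.450) and its groups overlapped. miR-135b, on card A as well, ran at Ct 26.0, 25.7 and 26.0 in NTGa and 31.3, 27.9 and 30.8 in NTGb. Its groups also did not overlap, and its difference of 3.74 (SE 1.01) had nearly the size of that of miR-135a but did not pass (limma, adjusted p = 0.0845).

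miR-425 was lower in NTGa. Its Ct was 33.9, 33.9 and 35.3 in the NTGa animals, the last not counted as detected, and 31.3, 29.6 and 31.5 in the NTGb animals. The groups did not overlap, and the difference was -3.65 (SE 0.78), or 12.6-fold lower, with the last NTGa animal set to the floor (limma, adjusted p = 0.0426). miR-191, which is made from the same Dalrd3 intron cluster and is among the abundant microRNAs of these samples, differed by only -0.33 (SE 0.23; limma, adjusted p = 0.553). The passenger strand miR-425* differed by -0.50 (SE 0.57; limma, adjusted p = 0.676), and both overlapped between groups.

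The assay with the rat name for miR-339-3p was the only call among the 222 assays detected in all 6 control animals (0.45%), of which 32 had an unadjusted p below 0.05 (14.4%). Its Ct was 32.5, 32.7 and 32.8 in NTGa and 31.1, 31.2 and 31.1 in NTGb, with no overlap. The difference was -1.89 (SE 0.36), or 3.71-fold lower in NTGa (limma, adjusted p = 0.0339). The assay with the mouse name, which crossed the threshold earlier, at Ct 29.7, 29.0 and 29.5 in NTGa and 29.2, 29.0 and 28.8 in NTGb, gave -0.73 (SE 0.34; limma, adjusted p = 0.324). Both assays point the same way, and the other arm of the hairpin, miR-339-5p, differed by -0.76 (SE 0.70; limma, adjusted p = 0.620).

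The other 2 calls were near the limit of detection. miR-509-3p, which belongs to an X-linked group of microRNAs best known from testis, ran at Ct 32.3, 31.7 and 30.7 in NTGa and 35.1, 33.8 and 36.1 in NTGb, where only replicate 2 counted as detected. Its difference was 2.69 (SE 0.53), or 6.44-fold, with 2 NTGb animals at the floor (limma, adjusted p = 0.0339). miR-331-5p ran at Ct 33.7, 32.6 and 32.6 in NTGa, while NTGb gave no Ct, 35.6 and 38.0. It was the only 1 of 584 assays detected in all 3 animals of 1 control group and in none of the other. Its difference was 1.40 (SE 0.30), or 2.63-fold, with all 3 NTGb animals at the floor (limma, adjusted p = 0.0426). The floor gives that group an SD of 0, so the p may be too small. This assay was tested only because all 3 animals of NTGa, the group where it was high, detected it. When assays detected in at least 1 animal were tested, it did not pass (limma, adjusted p = 0.0681). The guide strand from the same hairpin, miR-331-3p, was abundant at Ct 26.2, 26.6 and 26.4 in NTGa and 27.3, 26.7 and 27.1 in NTGb, and differed by 0.22 (SE 0.22; limma, adjusted p = 0.650).

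**Figure D2:**
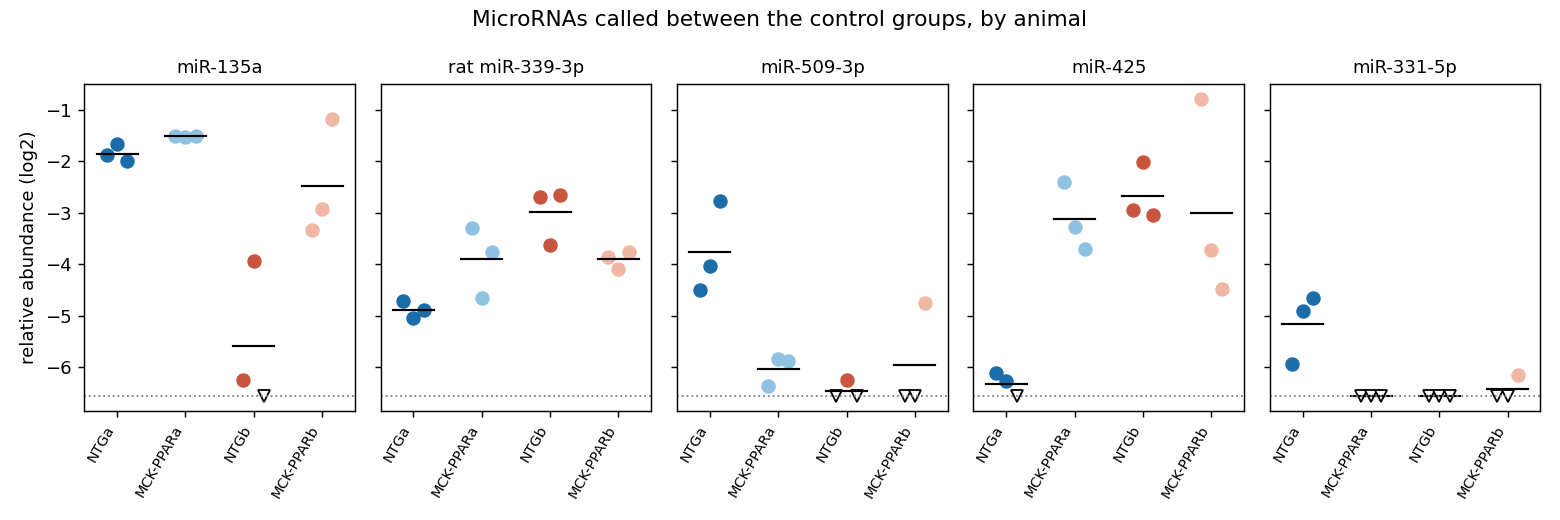
Relative abundance on the log2 scale (y axis) of the 5 microRNAs called between the control groups, in the 3 animals of each of the 4 groups (x axis). Points are animals, bars are group means, open triangles are values set to the floor of card A (dotted line, -6.56); miR-331-5p is at the floor in all 3 NTGb animals and miR-135a in 1.

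The calls depended on the animals included. With any 1 of the 6 controls left out, the number of calls ran from 0 to 3 and was 0 for 4 of the 6 animals, namely NTGa replicates 2 and 3 and NTGb replicates 1 and 3. Without NTGa replicate 1 there were 2 calls, and without NTGb replicate 2 there were 3, of which 2 were among the 5. In the fit over the 6 control animals alone there was 1 call, miR-425. Beside the floor, the detection rule also decided calls: with only the 208 assays detected in all 12 animals, limma called 0 assays, with 33 at an unadjusted p below 0.05.

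The next microRNAs in order of p did not pass. Among those lower in NTGa, miR-184 had no Ct in 2 of 3 NTGa animals and a Ct of 33.4 in the third, against 32.5, 31.9 and 31.4 in NTGb (difference -2.36, SE 0.55; limma, adjusted p = 0.0532). miR-222, which with miR-221 targets the cell-cycle inhibitor p27, had a smaller and tighter difference of -0.81 (SE 0.19; limma, adjusted p = 0.0532), from 2.39 ± 0.02 (SD, n = 3) in NTGa against 3.20 ± 0.22 in NTGb. miR-33*, from the Srebf2 intron, differed by -2.10 (SE 0.52), miR-134 by -2.50 (SE 0.68) and miR-138 by -1.17 (SE 0.31). miR-193b differed by -1.14 (SE 0.33), miR-210, the hypoxia-responsive microRNA, by -1.77 (SE 0.53), and miR-125b* by -0.79 (SE 0.24). None of these 8 had overlapping groups, and their limma adjusted p ran from 0.0532 to 0.122. A separate assay with the rat name for miR-125b*, also on card B, gave only -0.13 (limma, adjusted p = 0.831).

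Among those higher in NTGa were miR-741, another member of the X-linked testis group, at 2.35 (SE 0.64; limma, adjusted p = 0.0845), and miR-539 at 1.25 (SE 0.37; limma, adjusted p = 0.115). miR-192 was at 0.68 (SE 0.22), miR-148a at 1.04 (SE 0.34), miR-434-3p at 1.10 (SE 0.38) and miR-101a at 0.77 (SE 0.28). The groups overlapped for miR-101a and not for the others.

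Differences were larger among rarer microRNAs. Among the 38 tested assays with a mean control Ct below 25, 0 were called and 4 had an unadjusted p below 0.05 (10.5%). Their median absolute difference was 0.26, a 1.19-fold change, and 1 of them exceeded 2-fold. For the 92 between Ct 25 and 30, limma called 0 and 13 had an unadjusted p below 0.05 (14.1%), with a median absolute difference of 0.27. For the 54 between Ct 30 and 32 the median was 0.53 with 2 calls, and for the 84 at Ct 32 and above it was 0.63 with 3 calls. More than 2-fold was reached by 12 of these 54 and 24 of these 84.

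The spread between animals grew from class to class in NTGa but not in NTGb. In NTGa, the median SD over the assays of a class was 0.11 below Ct 25, 0.27 between 25 and 30, 0.43 between 30 and 32, and 0.59 from 32 on. In NTGb it was 0.39, 0.33, 0.42 and 0.59 over the same classes. Without replicate 2 it was 0.17, 0.21, 0.23 and 0.41. Across the classes, MCK-PPARa and MCK-PPARb had median absolute differences from each other of 0.19, 0.36, 0.41 and 0.61, against 0.26, 0.27, 0.53 and 0.63 for the controls. Whether these differ was not tested.

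**Figure D3:**
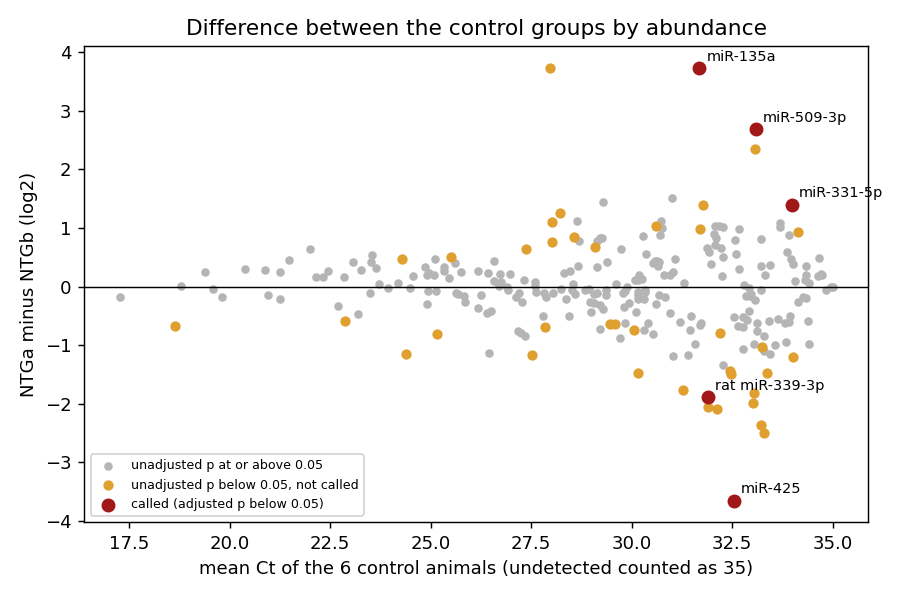
Difference between the control groups (y axis, NTGa minus NTGb, log2) against the mean Ct of the 6 control animals (x axis; undetected values counted as 35) for the 268 tested assays, 1 point each. The 5 called assays (dark red) all lie above Ct 31, and the spread of the points widens with Ct.

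The 10 most abundant assays, with mean control Ct from 17.3 to 21.2, were split 4 higher and 6 lower in NTGa. miR-1 was counted through both its mouse-named and its rat-named assay, at 0.28 and 0.26. Of the 10 assays, 1, that of miR-206, had an unadjusted p below 0.05. Their differences ran from -0.67 to 0.29. Their 95% intervals reached from -1.20 at the lowest to 1.38 at the highest, so a 2-fold difference lies within the bounds for some of them.

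Of the muscle microRNAs, 7 of 8 on the cards were tested, 1 was higher in NTGa, 0 passed after adjustment (1.87% of all assays did), and 3 were lower at an unadjusted p below 0.05 (9.33% of all assays were). Their median was -0.18, against -0.03 for all 268, and it turned to 0.38 with U6 as the reference, where the median of all assays was 0.49. Leaving out NTGb replicate 2 gave -0.54 and leaving out NTGb replicate 3 gave -0.0066. miR-206, a muscle-specific relative of miR-1 with the same seed, ran at Ct 18.7, 18.8 and 18.9 in NTGa and 18.4, 18.5 and 18.5 in NTGb, without overlap. Its difference was -0.67 (SE 0.24; limma, adjusted p = 0.200). miR-1 differed by 0.28 (SE 0.22), miR-133a, the most abundant microRNA measured, by -0.18 (SE 0.29), and miR-133b by -0.14 (SE 0.25). miR-486, which sits in the Ank1 gene, differed by -0.02 (SE 0.23).

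The microRNAs encoded in myosin genes were both lower in NTGa, at values that did not pass. miR-499 ran at Ct 27.9, 28.0 and 28.1 in NTGa and 27.5, 27.7 and 27.8 in NTGb (difference -0.69, SE 0.30; limma, adjusted p = 0.303), and the scaled values overlapped. miR-208b, near the detection limit at Ct 32.9, 31.8 and 34.4 in NTGa and 32.3, 32.3 and 31.1 in NTGb, differed by -1.49 (SE 0.62; limma, adjusted p = 0.285). miR-208, made from the cardiac myosin gene Myh6, was detected in 0 of 3 NTGa and 1 of 3 NTGb animals and was not tested.

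No microRNA family had more than 1 member called. The miR-30 family had 5 of 5 members higher in NTGa, 4 of them with no overlap (9.7% of all assays did so in that direction), with a median of 0.48 against -0.03 for all assays, and 0 called. All members but miR-30d had a mean control Ct below 25. The tested assays of that class had a median of 0.17, with 23 of 38 higher in NTGa. miR-30c ran at Ct 21.1, 21.0 and 21.2 in NTGa and 21.8, 21.9 and 21.9 in NTGb (difference 0.46, SE 0.24), and miR-30d differed by 0.51 (SE 0.22; limma, adjusted p = 0.293). The remaining members were miR-30e at 0.64 (SE 0.33), miR-30a at 0.48 (SE 0.21) and miR-30b at 0.17 (SE 0.24). NTGb replicate 2 had the lowest scaled miR-30c level of the 6 controls, though its raw Ct lay between those of the other NTGb animals. Its reference Ct on card A was 27.6, against 28.4 in each of the others of its group. Without that animal the family median was 0.28 with 4 of 5 members higher. Against the median of all assays under the same scaling, the family median stayed 0.21 to 0.54 higher under the other references tried.

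The let-7 family, which is involved in developmental timing, showed no common direction, with 4 of 9 higher, a median of -0.06 and a range of -0.28 to 0.71; with U6 as the reference the median was 0.49, like that of all assays, and without NTGa replicate 3 it was 0.30. The miR-29 family, which targets collagen messages, had 3 of 3 higher with a median of 0.25. The miR-15/16 family had 5 of 6 higher with a median of 0.18, the miR-17-92 group of clusters 6 of 11 with a median of 0.05, and the miR-23-27-24 clusters 2 of 4 with a median of 0.06. None of these 5 lists had a member with an unadjusted p below 0.05.

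Larger and mixed differences stood in a few small families. The miR-135 family had both members higher, with a median of 3.73. miR-148a and miR-148b, which share a seed family, went opposite ways, at 1.04 (SE 0.34) and -1.48 (SE 0.47). miR-221, which has the seed of miR-222, was lower like it, at -1.82 (SE 0.81; limma, adjusted p = 0.303), but its groups overlapped. The X-linked testis group had 17 of 20 assays never detected in the controls, and 2 of the 3 tested members were higher, with a median of 2.35.

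The microRNAs of the imprinted Dlk1-Dio3 locus, expressed from the maternal chromosome, were split. Of 50 on the cards, 21 were never detected in the controls and 19 were tested, with 10 higher in NTGa and a median of 0.30. That median ran from 0.027 without NTGb replicate 3 to 0.56 without NTGb replicate 2, and was 0.85 with U6 as the reference. At an unadjusted p below 0.05, 3 were higher, namely miR-539, miR-434-3p and miR-337-5p (1.39, SE 0.57), and 2 were lower, namely miR-134 and miR-379 (-1.48, SE 0.65). Over all assays 6.34% were higher and 9.33% lower at that threshold. Members of 1 locus therefore lay on both sides of zero, and 0 passed after adjustment. Passenger strands had 20 of 55 higher and a median of -0.13, and the other assays 109 of 213 and a median of 0.00.

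**Figure D4:**
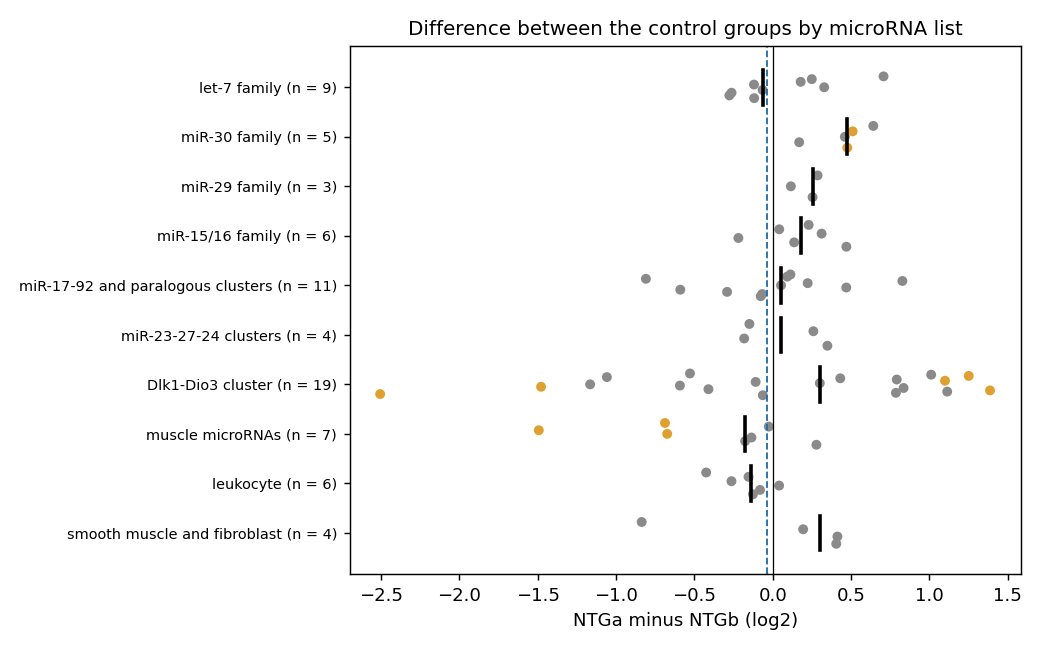
NTGa minus NTGb difference (x axis, log2) of the tested members of 10 microRNA lists (y axis, n tested in brackets), 1 point per microRNA, orange where the unadjusted limma p was below 0.05. The black bar is the list's median and the dashed line the median of all 268 assays, -0.03; the miR-30 family is the only list here of more than 3 members that lies wholly above zero, where miR-30b falls below it with the median reference and with quantile normalization.

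The bulk samples also hold cells other than muscle fibres, and fewer cells of a type and less RNA per cell cannot be told apart. The leukocyte list had 1 of 6 tested members higher in NTGa, with a median of -0.14 and a range of -0.42 to 0.04. Its summed level ran from 5.09 to 5.43 in NTGa and from 4.99 to 5.68 in NTGb (log2). The endothelial list, miR-126-3p and miR-126-5p, summed to 8.95 to 9.15 in NTGa and 8.34 to 9.43 in NTGb, and the erythroid marker miR-451 ran from -1.61 to -0.98 in NTGa and from -2.04 to -1.31 in NTGb. These 3 overlapped between the groups.

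The summed level of the smooth muscle and fibroblast list did not overlap, though a sum follows mostly its abundant members. The mean log2 level of its 4 tested members did overlap, at 2.64, 2.55 and 2.59 in NTGa and 2.42, 2.81 and 2.41 in NTGb. The sum was 5.30 to 5.35 in NTGa and 5.03 to 5.09 in NTGb. In this list 3 of 4 members were higher, among them miR-145 at 0.41 and miR-143 at 0.41 (limma, adjusted p = 0.383 and 0.334), with miR-214 at -0.84. Neural markers summed to 0.43 to 0.68 in NTGa and 0.88 to 1.57 in NTGb, also without overlap. Of their 4 tested members 1 was higher, and miR-138 had the lowest difference, at -1.17. The mean log2 level of these 4 overlapped, at -2.56, -3.20 and -3.48 in NTGa and -2.55, -3.02 and -2.46 in NTGb. Of the 8 neural markers, miR-137 and miR-219 were detected in no control animal, miR-129-3p in 1 NTGb animal, and miR-124 in NTGa replicate 2 (Ct 31.6) and NTGb replicate 3 (Ct 34.8). The epithelial list had 3 of 11 members tested, 2 of them higher, and summed to -0.35 to -0.14 in NTGa and -0.74 to -0.26 in NTGb, which overlap. Of its other members, miR-183 and miR-205 were detected in no control animal. miR-200a was detected in NTGa replicate 2 alone, at Ct 27.4, and miR-96 in NTGa replicate 1 alone, at Ct 28.2. miR-141 and miR-375 were each detected in NTGa replicate 3 alone, miR-200b in NTGb replicate 2 alone and miR-429 in 2 NTGb animals. Of the 6 markers of other organs, miR-122 of liver and miR-216a, miR-216b and miR-217 of pancreas were detected in no control animal. The part of these markers in the other results was not tested.

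The same 2 lines could be compared with their transgenes present, in animals that share no sample with the controls. MCK-PPARa and MCK-PPARb differed for 8 of 268 assays (2.99%) and at an unadjusted p below 0.05 for 37 (13.8%). Of the 5 assays called between the controls, 0 were called there. In MCK-PPARa minus MCK-PPARb, miR-135a differed by 0.96, miR-425 by -0.13, rat miR-339-3p by -0.01, miR-509-3p by -0.07 and miR-331-5p by -0.14. Whether the line difference itself changed with the transgenes was not shown for these 5, since the test of the difference of differences gave limma adjusted p from 0.156 to 0.244 for them, and it passed for 3 assays of 268 (1.12%).

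Of the 42 assays with an unadjusted p below 0.05 in the controls, 8 also had one in the transgenic animals. That is 19.0% of the 42 and 21.6% of the 37. Over all 268 assays, 13.8% had one in the transgenic animals. Both comparisons used the same limma fit and the same estimate of spread for each assay, so these lists are not independent. Whether the overlap exceeds what this sharing gives was not tested. The 8 were miR-222, miR-138, miR-193b, miR-31, miR-208b and miR-499, which were lower in line a, and miR-192 and miR-204, which were higher. All 8 had the same sign in both comparisons. Over all 268 assays the sign was the same for 160 (59.7%). As a description across microRNAs, which are not independent and share the scaling reference and cards, Pearson's r between the control and transgenic differences was 0.31 and Spearman's rho 0.33 (n = 268). Over the 208 assays detected in every animal they were 0.32 and 0.36.

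For 7 assays (2.61%) all 6 animals of line a lay on one side of all 6 animals of line b. miR-31, which represses Myf5 in muscle satellite cells, had a Ct of 33.4, 32.6 and 32.2 in NTGa and 31.8, 29.2 and 32.1 in NTGb. Its differences were -2.06 (SE 0.69) in the controls and -2.68 (SE 0.69) in the transgenic animals. The transgenic difference depends on the floor, to which MCK-PPARa replicate 3 was set. miR-193b ran at Ct 24.8, 24.6 and 24.9 in NTGa and 24.0, 24.2 and 23.7 in NTGb, with differences of -1.14 (SE 0.33) and -1.28 (SE 0.33). miR-222 differed by -0.81 (SE 0.19) and -0.66 (SE 0.19), and miR-125b* by -0.79 (SE 0.24) and -0.27 (SE 0.24). These 4 were lower in line a. The assay with the rat name for miR-125b* gave -0.13 in the controls and was not among the 7.

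Those higher in line a were miR-204, made from an intron of Trpm3, at 0.64 (SE 0.26) in the controls and 0.74 (SE 0.26) in the transgenic animals, miR-143 at 0.41 (SE 0.19) and 0.40 (SE 0.19), and miR-30c at 0.46 (SE 0.24) and 0.29 (SE 0.24). None of the 7 passed adjustment in either comparison, and the 7 were picked because their values separated the lines.

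**Figure D5:**
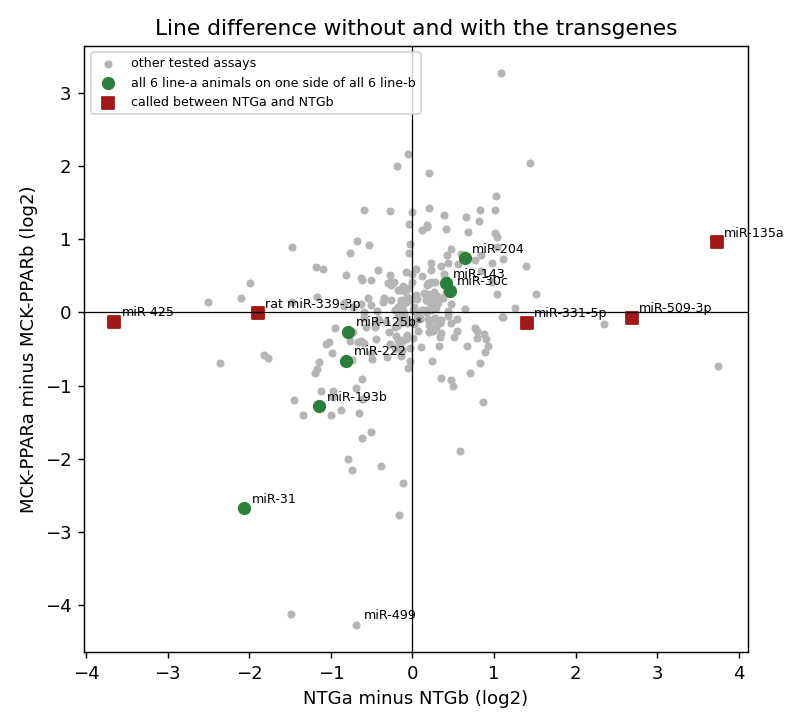
Line difference in the transgenic animals (y axis, MCK-PPARa minus MCK-PPARb, log2) against that in the controls (x axis, NTGa minus NTGb, log2), 1 point per tested assay (n = 268). Green points are the 7 assays whose 12 animals separate by line, and red squares the 5 called between the controls, of which 4 lie near zero on the y axis and miR-135a at 0.96.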

How the data were processed

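Each animal's RNA was run on a card A (375 microRNA assays) and a card B (209). The authors deposited a Ct per well, treated here as a score that was not normalized, with an empty cell where none was called. Neither the Ct software nor its threshold is given in the sources used here. Wells of an assay were averaged, an empty well beside a called one counting as Ct 40. After scaling, undetected values were set to 1 floor per card (-6.56 on A, -5.66 on B). Assays detected in all 3 animals of at least 1 of the 4 groups were tested (268; 180 on A, 88 on B). limma 3.58.1 in R 4.3.3 (lmFit, eBayes) was fitted over 12 animals with 8 residual degrees of freedom, and called assays at a Benjamini-Hochberg adjusted p below 0.05. The fit was tested on simulated data. Single values had an exact permutation test (scipy). The labels call the replicates biological. Each limma p sets a difference against the spread between animals, estimated over all 4 groups and shared in part across assays.

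Members and lists were chosen with earlier results of these data known. The microRNAs named are those called, then those of lowest p up to 10 per direction, members of the lists, and assays of the same hairpins. miR-31, miR-204 and miR-143 were named after their values were seen. Alternatives covered the reference, detection limit, undetected values, filter, model and each animal left out; the wells rule was chosen after seeing the data.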

Additional observations from a re-analysis of the deposited data

Results flagged for a closer look

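3 microRNAs were marked because the difference between the lines differed between the transgenic and the control animals (limma, test of the difference of differences, Benjamini-Hochberg adjusted over 268 assays). For miR-499 the line difference was -4.26 in the transgenic animals and -0.69 in the controls, a change of -3.58 (SE 0.43, adjusted p = 0.00141), with the Ct of all 3 MCK-PPARa animals above that of all other animals. For miR-215 it was 2.16 against -0.06, a change of 2.22 (SE 0.34, adjusted p = 0.00612). miR-215 was detected in 0 of 3 NTGa, 1 of 3 NTGb, 3 of 3 MCK-PPARa and 1 of 3 MCK-PPARb animals, so its value depends on the floor. For miR-190b, by the assay with the mouse name, it was -2.33 against -0.12, a change of -2.22 (SE 0.43, adjusted p = 0.0313). The assay with the rat name, on card A, had a control difference of 0.87 (limma, adjusted p = 0.522) and was not among the 3 that passed. No explanation was tested for any of these 3 microRNAs, and groups of 3 animals are too small for a test of outlying animals.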

How the results depend on the processing

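Against 5 calls in the analysis reported, limma called 29 assays with U6 as the reference (26 higher in NTGa), 14 with animal weights, 1 with quantile normalization, 1 with assays detected in at least 1 animal and 1 with the 6 controls alone. It called 0 with a detection limit of Ct 32, 0 with no limit, 0 with undetected values missing and 0 with assays detected in all 12 animals, where unadjusted p was below 0.05 for 31, 42, 38 and 33. The Welch test gave 0, with 19. With each control left out, calls ran from 0 to 3. Other references moved the median of all assays from -0.03 to 0.49 (U6), 0.20 (endogenous controls), -0.22 (median) and 0.29 (raw Ct), and the higher share of calls from 60% to 89.7%, 50.0%, 28.6% and 83.3%. No single call held under all alternatives: among those other than leaving out an animal, miR-135a passed in 11 of 17, miR-509-3p in 10 of 16, miR-425 in 10 of 17, rat miR-339-3p in 9 of 18 and miR-331-5p in 7 of 15. Their directions did not change.

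The replicate block gave 6 calls, 3 of them higher in NTGa. No pairing by replicate number was assumed in the analysis reported. Deviations of same-numbered NTGa and NTGb animals correlated at -0.23 to 0.11, and those of differently numbered ones at -0.22 to 0.23. With 3 animals a group these values cannot show whether the numbers pair the animals.

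With U6, list medians moved to 0.49 (let-7), 1.03 (miR-30), 0.81 (miR-29), 0.74 (miR-15/16), 0.61 (miR-17-92), 0.61 (miR-23-27-24), 0.38 (muscle), 0.41 (leukocyte) and 0.85 (smooth muscle and fibroblast). Leaving out an animal moved the let-7 median from -0.14 to 0.30 and the muscle median from -0.54 to -0.0066. It also moved the difference in detected microRNAs from -5.83 to 18.2 and in control Ct from -0.343 to 0.135. Signs turned for miR-1 (median reference, -0.011), miR-133a (U6 0.38, raw 0.17, quantile 0.00), miR-133b (U6 0.42, raw 0.21), miR-486 (U6 0.53, endogenous 0.11, raw 0.32), miR-425* (U6 0.074), miR-331-3p (median -0.068), miR-191 (U6 0.22, raw 0.016) and miR-30b (median -0.12, quantile -0.037, weights -0.040). With an animal left out, they also turned for miR-133a (range -0.54 to 0.048), miR-133b (-0.43 to 0.0087), miR-486 (-0.25 to 0.15) and miR-30b (-0.11 to 0.31). Precision falls with Ct, and 3 animals a side limit every comparison.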
